A study of Mus musculus with 39 samples.

Results

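Slpi and C1s1 are 2 of the 10061 gene symbols measured in 39 single cells from adult mouse liver, and they were chosen by symbol after their levels in these cells were known. Slpi had 1 transcript row and C1s1 had 2, which were summed. Because the pair was picked for its pattern across the cells, the levels below are a description and carry no test.

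Slpi encodes secretory leukocyte protease inhibitor, a small protein with WAP domains that epithelial surfaces release and that blocks neutrophil elastase and cathepsin G. C1s1 encodes mouse C1s, the serine protease that works with C1r and the recognition protein C1q in the C1 complex, where it cleaves C4 and C2 and so starts the classical complement pathway. In the liver, hepatocytes make most of the circulating complement proteins, and the secreted inhibitor Serping1 holds C1r and C1s in check.

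The cells came from mice of genotype Krt19CreERT/Rosa26CAG-EGFP, in which an inducible Cre driven by the bile duct keratin gene Krt19 switches on a green reporter that daughter cells inherit. Green cells were sorted and picked one at a time for sequencing, so the label marks Krt19-expressing cells and their descendants, and liver cells outside that lineage were not sampled as a group. The labels give 1 group of 39 cells. They give the age only as adult and name no treatment, individual animal, sorting batch, plate or induction time, so cells cannot be counted as replicates and no p-value is given.

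Values are read counts scaled for library size (CPM) on a linear scale, recovered from the deposited log2 values. A value of 1 CPM stood for a median of 12.0 reads (range 3.67 to 41.5) in the 37 cells where the worth of 1 read could be found, and those cells held 2197346 to 36685947 reads each by that measure, with a median of 11418636. A median of 2985 genes reached 1 CPM (range 1866 to 5298). A gene is called high below in a cell where it reached 100 CPM. Of 12 housekeeping genes, 6 were listed at 0 in at least 1 cell, so a gene at 0 is only said to be listed so. Clustering on cell type markers, with neither gene on the lists, gave a cluster of 7 cells (numbers 5, 6, 7, 8, 10, 35 and 37), 22 cholangiocyte-like cells, 6 hepatocyte-like cells and a cluster of 4. The cluster of 7 is left unnamed because its 10 leading genes held markers of 2 cell types, with Dcn, Col1a2 and Col3a1 from the fibroblast list and Nkain4 and Lrrn4 from the mesothelial list. Slpi and C1s1 were themselves among those 10 leading genes. The cluster of 4 was also left unnamed, with 4 granulocyte and 4 leukocyte markers among its leading genes. Average linkage, a pseudocount of 10 CPM and a shorter set of marker lists each gave 2 clusters only, in which the 7 cells were not set apart from the other cells that were not hepatocyte-like.

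The 250 bases before the RefSeq start of each gene (mouse assembly GRCm38.p6, both genes on the minus strand) are shown because the pair was high in many of the same cells. The Slpi window lies at chr2:164356508-164356757, and 42.0% of its bases are G or C. The C1s1 window is at chr6:124542360-124542609, belongs to the first of 2 starts in the RefSeq table, and has 48.0% G and C. The median over all 32851 promoter windows was 52.4%. Capitals mark matches to TTNNGNAA, a loose form of the site of C/EBP factors, searched on both strands.
Slpi: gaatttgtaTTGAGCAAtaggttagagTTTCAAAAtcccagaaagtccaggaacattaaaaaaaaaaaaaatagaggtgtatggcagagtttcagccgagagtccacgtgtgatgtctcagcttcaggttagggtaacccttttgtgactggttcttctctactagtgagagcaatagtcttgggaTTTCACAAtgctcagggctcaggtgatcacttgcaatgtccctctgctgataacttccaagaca
C1s1: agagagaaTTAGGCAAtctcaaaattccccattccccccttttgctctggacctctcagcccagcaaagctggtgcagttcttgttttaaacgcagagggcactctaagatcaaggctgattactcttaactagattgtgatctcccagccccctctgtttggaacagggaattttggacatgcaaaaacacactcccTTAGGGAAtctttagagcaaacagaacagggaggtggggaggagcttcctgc

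The Slpi window held 3 such matches, which began 241, 223 and 64 bases before the start. The C1s1 window held 2, which began 242 and 52 bases before it. At least 1 match was found in 36.8% of all windows, at least 2 in 10.9% and at least 3 in 2.61%. Neither window held TATAAA (12.4% of all windows), the AP-1 letters TGANTCA (6.75%), the STAT letters TTCNNNGAA (7.02%), the NF-kB motif (7.25%) or the interferon-stimulated response element (2.98%), each searched on both strands. These matches are letters in a window, and binding was not measured.

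Slpi was high in 8 of 39 cells, 20.5% of them (exact Clopper-Pearson 95% interval 9.30% to 36.5%, which covers the choice of cells alone). Of all 10061 genes, 12.8% were high in as many cells or more. In the cluster of 7, Slpi stood at 122.6 CPM in cell 5, 22598 in cell 6, 37589 in cell 7, 27746 in cell 8, 261.9 in cell 10, 21.5 in cell 35 and 1920 in cell 37. Cells 6, 7 and 8 were thus far above the others of the cluster, and cell 35 was below 100 CPM. In cells 6, 7 and 8 this 1 transcript made up 2.56%, 2.52% and 2.04% of the summed CPM.

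Among the 22 cholangiocyte-like cells Slpi was high in 2, with 4388 CPM in cell 13 and 593.8 CPM in cell 25. Cell 9 held 48.8 CPM, the value nearest below 100 CPM. The other 19 cells of that group lay between 0 and 1.80 CPM, and 12 of them were listed at 0. No hepatocyte-like cell and no cell of the cluster of 4 was high, with 0.0381 to 1.21 CPM in the first group and 0 to 1.49 CPM in the second. Median levels were 1920 CPM in the cluster of 7, 0 in cholangiocyte-like cells, 0.409 in hepatocyte-like cells and 0.544 in the cluster of 4. The cluster of 7 and the other cells overlapped for Slpi, since cell 13 was above 4 cells of the cluster and cell 25 above 3. Slpi values came out as whole reads, within 2% of a read, in all 24 cells above 0 whose depth could be read.

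C1s1 was high in 9 of 39 cells, 23.1% of them (exact Clopper-Pearson 95% interval 11.1% to 39.3%), and 10.6% of all genes were high in as many cells or more. In the cluster of 7 it stood at 1622 CPM in cell 5, 621.1 in cell 6, 4817 in cell 7, 1456 in cell 8, 377.0 in cell 10, 1136 in cell 35 and 398.9 in cell 37. All 7 cells were high, and the highest was cell 7, as it was for Slpi. The median was 1136 CPM in the cluster of 7, 0 in cholangiocyte-like cells, 43.3 in hepatocyte-like cells and 0.0826 in the cluster of 4.

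Outside the cluster of 7, C1s1 was high in 1 cholangiocyte-like cell, number 30 with 304.9 CPM, and in 1 hepatocyte-like cell, number 39 with 101.8 CPM. Hepatocyte-like cells 39, 38 and 1 held 101.8, 87.1 and 80.5 CPM, on either side of the 100 CPM level, while cells 3, 4 and 2 held 6.12, 0.546 and 0 CPM. In cholangiocyte-like cells the next values were 21.3 CPM in cell 13, 16.6 in cell 31 and 4.78 in cell 9, and 13 of the 22 were listed at 0. The highest value in the cluster of 4 was 1.13 CPM, in cell 33.

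The lowest C1s1 value of the cluster of 7 was above the highest of the other 32 cells. Such a gap was found for 0.0895% of all genes, or 9 genes, of which Col1a2, Col5a1, Dcn, Nkain4 and Wt1 were on the lists that formed the clusters. It depended on the scaling. With each cell scaled to a sum of 1000000, the lowest value was 382.0 in cell 37 of the cluster of 7, against 486.9 in cholangiocyte-like cell 30.

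**Figure D1:**
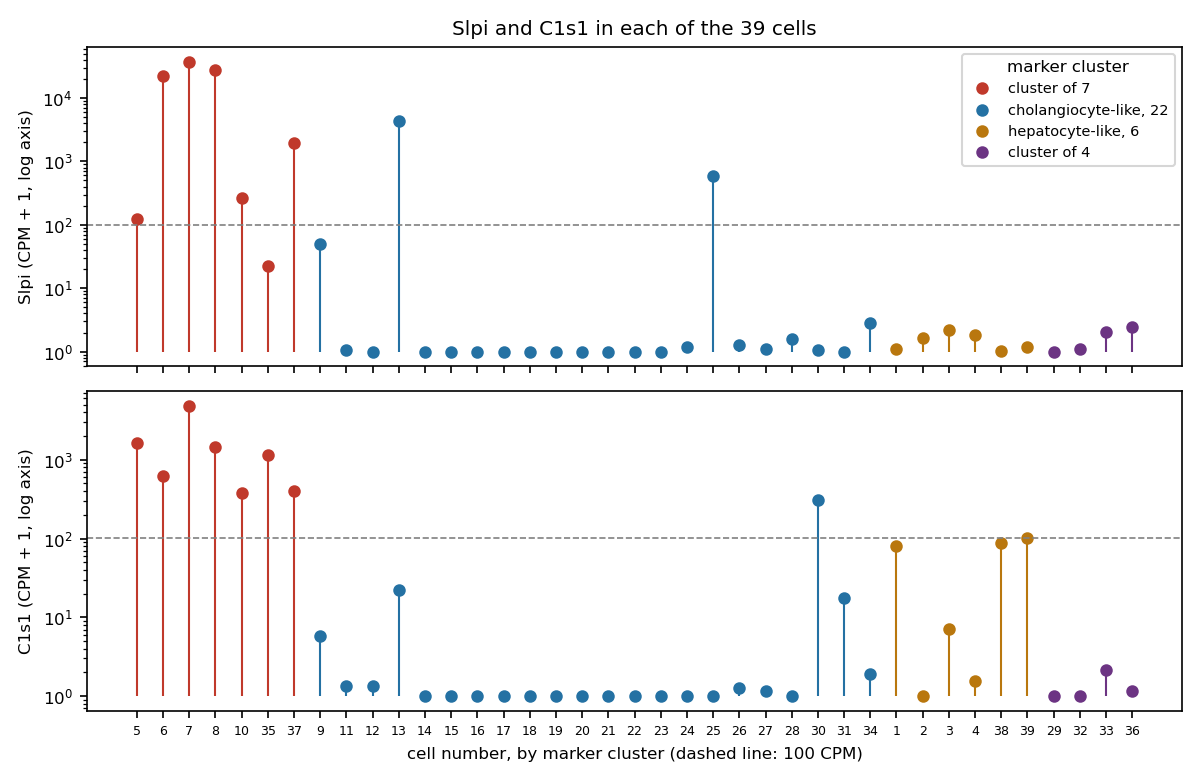
Levels of Slpi (top) and C1s1 (bottom) in each of the 39 cells, as CPM + 1 on a log axis, ordered and coloured by marker cluster with the cluster of 7 at the left. Each point is 1 cell and the dashed line marks 100 CPM. C1s1 is above the line in all 7 cells of that cluster and Slpi in 6 of them, with cells 13 and 25 (Slpi) and cells 30 and 39 (C1s1) above it elsewhere.

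C1s1 has a close copy, C1s2, and its own 2 rows differ little. The C1s1 transcripts of 2906 and 2946 bases were identical over 2814 bases, and 97.0% of the 50-base windows of the shorter occur in the longer, so the split between rows is uncertain. The shorter took 37.9% to 81.5% of C1s1 across the cluster of 7. C1s2 was 95.9% identical to C1s1 over 2643 bases and shared 24.6% of such windows with the shorter row. In cells 5, 6, 7, 8, 10 and 37, C1s2 stood at 88.6, 47.5, 138.4, 113.6, 26.4 and 19.3 CPM, which was 2.87% to 7.80% of the C1s1 value there. It was listed at 0 in cells 30, 35 and 39, where C1s1 was high. Whether the C1s2 reads are C1s1 reads placed on the copy was not tested.

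Both genes were high in 6 cells, all in the cluster of 7 (numbers 5, 6, 7, 8, 10 and 37). Slpi alone was high in cells 13 and 25, C1s1 alone in cells 30, 35 and 39, and 28 cells had neither. Both reached 1000 CPM in 2 cells, numbers 7 and 8. Of all genes, 0.159% were high in at least as many cells of the cluster of 7 and in no more of the other cells as Slpi, and 0.0298% as C1s1. The pair was picked with its levels in these clusters known, so nothing is read from these shares.

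Per kilobase of transcript, the ratio of the Slpi level to the C1s1 level was 121 in cell 6, 63.6 in cell 8, 26.1 in cell 7, 16.1 in cell 37 and 2.31 in cell 10. It turned over in cells 5 and 35, where the C1s1 level per kilobase was 3.97 and 15.9 times that of Slpi. Cells of this cluster carried the pair in very different proportions. Over all 39 cells, Pearson's r between the genes on log2(CPM + 1) was 0.695 and Spearman's rho was 0.677. Within the cluster of 7, r was 0.284 and rho 0.321, and over the other 32 cells r was 0.134 and rho 0.445. The points are single cells that differ in library and depth, so these values only describe them. C1s1 ranked 50 in likeness to Slpi among 9645 genes, so 0.518% of genes were at least that close. Slpi ranked 42 in likeness to C1s1, a share of 0.435%.

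**Figure D2:**
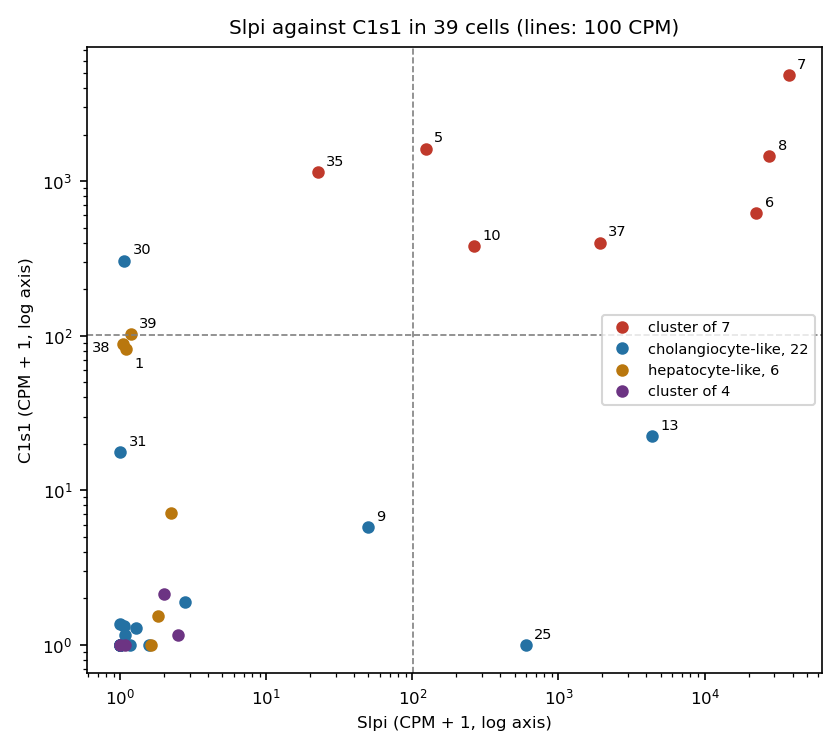
Slpi against C1s1 in 39 cells, both as CPM + 1 on log axes, coloured by marker cluster, with dashed lines at 100 CPM and numbers on cells where either gene reached 10 CPM. The upper right holds 6 cells of the cluster of 7, while cells 13 and 25 lie high for Slpi alone and cells 30, 35 and 39 for C1s1 alone.

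The marker lists below are those that formed the clusters, so their contrasts between clusters were set in advance and only describe the cells. In cells 5, 6, 7, 8, 10, 35 and 37 of the cluster of 7, 9, 4, 10, 11, 7, 5 and 4 of the 14 measured mesothelial markers were high, against at most 2 in any other cell. Of the 13 measured fibroblast and stellate markers, 3 to 6 were high per cell of the cluster of 7, against at most 2 elsewhere. The summed mesothelial markers came to 2618 to 11362 CPM in the cluster of 7, against at most 1408 CPM elsewhere, in a cholangiocyte-like cell. The summed fibroblast and stellate markers came to 2986 to 29643 CPM in the cluster of 7, against at most 3764 CPM elsewhere, also in a cholangiocyte-like cell. Wt1, a transcription factor of mesothelium, stood at 42.6 to 629.0 CPM in the cluster of 7, against at most 29.7 CPM in the other cells. Msln, the surface protein mesothelin, was high in 3 of the 7 and in 3 cholangiocyte-like cells, and Lrrn4 in 6 of the 7 and in 1 cholangiocyte-like cell. None of the 9 granulocyte, 9 macrophage and 3 endothelial markers measured was high in the cluster of 7. The endothelial list held 10 genes, so most of it was not measured. Of 6 measured leukocyte markers Arhgdib was high in 3 of the 7, cells 6, 8 and 37, at up to 710.3 CPM. The part of these markers, or of cells captured together, in the Slpi and C1s1 levels was not tested.

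Krt19, which drives the lineage label, was at 323.7, 96.3, 1090, 126.9 and 457.4 CPM in cells 5, 6, 7, 8 and 10, and listed at 0 in cells 35 and 37. Spp1, the secreted protein osteopontin and a bile duct marker, was high in none of the 7 and in all 22 cholangiocyte-like cells. It was also high in 2 hepatocyte-like cells, number 2 at 365.3 CPM and number 3 at 160.7 CPM. The hepatocyte markers Alb, Ttr and Ahsg were high in none of the 7 and in every hepatocyte-like cell, and they were also high in 13, 13 and 10 cholangiocyte-like cells. Of the 28 hepatocyte markers, 2 were high in any of the 7, namely Trf, the iron carrier transferrin, in 4 cells and Hp, the hemoglobin-binding haptoglobin, in 1. The summed hepatocyte list reached 16906 CPM in cell 37, of which Trf made up 14771 CPM.

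Cells outside the cluster of 7 that were high for one gene are described next by the markers that had placed them in their groups. That they carried markers of those groups was therefore set in advance. Cell 13, with Slpi at 4388 CPM, had 6 cholangiocyte markers and 1 mesothelial marker high, with Krt19 at 1333 CPM and Wt1 at 15.4 CPM. Cell 25, with Slpi at 593.8 CPM, had 7 cholangiocyte markers and no mesothelial marker high, with Spp1 at 83095 CPM. In these 2 cells duct markers stood beside Slpi. Cell 30, with C1s1 at 304.9 CPM, had 5 cholangiocyte and 10 hepatocyte markers high, with Spp1 at 10921 CPM and the plasma protein Alb at 2027 CPM. Cell 39, with C1s1 at 101.8 CPM, had 23 hepatocyte markers high and Alb at 14267 CPM. In these 2 cells C1s1 stood beside hepatocyte markers, and in cell 30 beside duct markers as well. Cholangiocyte-like cells 27, 28 and 31 had 10, 11 and 12 hepatocyte markers high, with C1s1 at only 0.166, 0 and 16.6 CPM.

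A stretch of cell numbers among the cholangiocyte-like cells held neither gene. In cells 14 to 23, both were listed at 0 in all 10 cells. In the other 12 cholangiocyte-like cells Slpi was above 0 in 10 and C1s1 in 9, and they stood at 3 reads or more in 5 and 7 of them. With 1 CPM worth 5.78 to 15.5 reads in the 10 cells, a count of 0 allows a level of up to 3 reads, or 0.193 to 0.519 CPM, which covers counting error only. Depth overlapped that of the other 12 cells, at 4.46 to 19.8 reads per CPM. The genes at 1 CPM numbered 1866 to 3208 in the 10 cells and 2322 to 3816 in the other 12. Of the 1284 genes high in at least 8 cells, 2.34% were listed at 0 in all 10. The stretch was noticed after the values were seen, and the labels name no batch.

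The genes most like Slpi, by Pearson's r on log2(CPM + 1) over 39 cells, were Ptgis (0.882), Wt1 (0.861), Ifi27l2a (0.841), Fbln1 (0.826), Gpr133 (0.825), Igfbp6 (0.812), C1s2 (0.811), Aebp1 (0.810), Tnxb (0.801) and Ccdc80 (0.798). Ptgis is prostacyclin synthase, Fbln1 and Tnxb encode the matrix proteins fibulin-1 and tenascin-X, and Igfbp6 binds insulin-like growth factors. Those most like C1s1 were Ifi27l2a (0.830), Crls1 (0.821), Nkain4 (0.818), C1ra (0.811), Col1a2 (0.810), Igfbp6 (0.809), Dcn (0.806), Saa3 (0.801), Chil1 (0.780) and Fbln1 (0.780). C1ra encodes C1r, the partner protease of C1s, Saa3 is an acute-phase protein, Col1a2 is a chain of type I collagen and Dcn is the matrix proteoglycan decorin. Fbln1, Ifi27l2a and Igfbp6 were on both lists of 10, and the 50 nearest genes of each member shared 26.

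**Figure D3:**
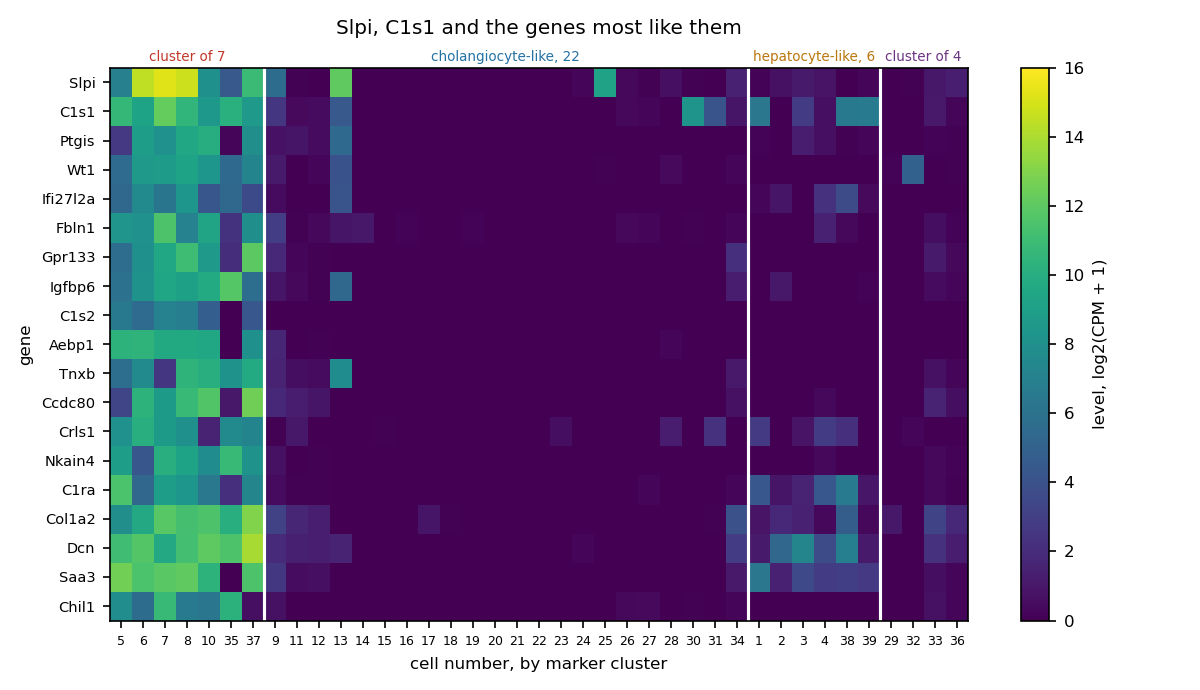
Level of Slpi, C1s1 and the 17 genes most like either of them, one row per gene and one column per cell, ordered by marker cluster with the cluster of 7 at the left, where colour gives log2(CPM + 1). The rows are bright in the cluster of 7 and mostly dark elsewhere, with cell 13 bright for Slpi and Tnxb and the hepatocyte-like cells coloured for C1s1, C1ra, Dcn and Saa3.

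Few cells outside the cluster of 7 held these 17 genes at a high level. They were ranked by likeness to a pair picked for its pattern across the cells, so this was largely set in advance. Wt1, Nkain4, Col1a2 and Dcn were also on the lists that formed the clusters. The counts that follow only describe the cells. Ptgis was high in 5 of the 7 and in 0 of the 32 others, Fbln1 in 6 and 0, Col1a2 in 7 and 0, and Dcn in 7 and 2. At 1 CPM, cells 5, 6, 7, 8 and 10 held all 17 genes, cell 37 held 16 and cell 35 held 13. Cell 9 held 9 of them, cells 4, 13, 34 and 38 held 6 each, and the remaining cells at most 5. Over the 32 cells outside the cluster of 7, r with Slpi was 0.777 for Tnxb, 0.754 for Igfbp6 and 0.735 for Ptgis. Cell 13, the highest of those 32 for Slpi, was also the highest of them for these genes, at 216.2, 38.9 and 42.5 CPM. For the rest of the 10 genes most like Slpi, r with Slpi over those 32 cells ran from 0.0074 for C1s2 to 0.485 for Ifi27l2a. Among the 10 genes most like C1s1, r with C1s1 over the same cells ran from -0.0161 for Chil1 to 0.548 for Saa3. It was 0.490 for C1ra and 0.0069 for Nkain4.

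Of all genes, 5.97% were high in at least 4 of the 7 cells. The pathway lists were chosen with earlier results of these data known. Their counts here and below therefore only describe the cells, and no excess over that share is read from them. Of the 9 measured genes of the classical complement list, 3 were high in at least 4 of the 7, namely C1s1, C1ra and Serping1. C1s1 was chosen with its levels known and C1ra was among the genes most like it, so this count cannot be read against that share. C1ra stood at 2878 CPM in cell 5, 37.2 in cell 6, 493.6 in cell 7, 343.3 in cell 8, 84.1 in cell 10, 3.59 in cell 35 and 152.5 in cell 37. It was high in no other cell, the nearest being hepatocyte-like cell 38 at 93.1 CPM, where C1s1 was at 87.1 CPM. Serping1, the C1 inhibitor, stood at 2723 CPM in cell 5, 83.3 in cell 6, 5844 in cell 7, 2102 in cell 8, 1467 in cell 10, 1773 in cell 35 and 6365 in cell 37. It was also high in 8 of 22 cholangiocyte-like cells and 5 of 6 hepatocyte-like cells, and in none of the cluster of 4, so more cells held the inhibitor than the proteases at a high level.

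C4b and C2, whose products C1s cleaves, differed widely between the same cells. C4b was at 1317 CPM in cell 5, 2697 in cell 7 and 5173 in cell 35, and at 0.345 to 3.35 CPM in the other 4 cells of the cluster of 7. C2 was at 2095 CPM in cell 5 and 699.5 in cell 8, and at 0 to 35.4 CPM in the other 5. Cell 5 was the only cell of the cluster with C1s1, C1ra, C4b and C2 all high, and it had the second lowest Slpi of the 7. The C1q chains C1qa, C1qb and C1qc were high in 1 cell, number 33 of the cluster of 4, at 3315, 7889 and 6089 CPM, where C1s1 was at 1.13 CPM. Cell 33 had all 9 measured macrophage markers high and 0 granulocyte markers high. The C1q chains are themselves on the macrophage list, which helped form the clusters. In the cluster of 7 the C1q chains were at most 0.745 CPM. As high C1q was seen in 1 cell only, nothing is read from its separation from the proteases.

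C3 and Cfb, the central component and the alternative pathway protease factor B, were the 2 of 13 other complement proteins that were high in at least 4 of the 7. C3 was at 25087, 6445, 51756, 20768, 3758, 13483 and 17011 CPM in cells 5, 6, 7, 8, 10, 35 and 37. It was high in 16 of 22 cholangiocyte-like, 6 of 6 hepatocyte-like and 2 of 4 cells of the remaining cluster as well. Cfb had a median of 4610 CPM in the cluster of 7, 10.4 in cholangiocyte-like cells, 669 in hepatocyte-like cells and 0.138 in the cluster of 4. The lectin Mbl1 and the terminal component C9 were listed at 0 in all 7 and were high in 4 and 3 hepatocyte-like cells.

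**Figure D4:**
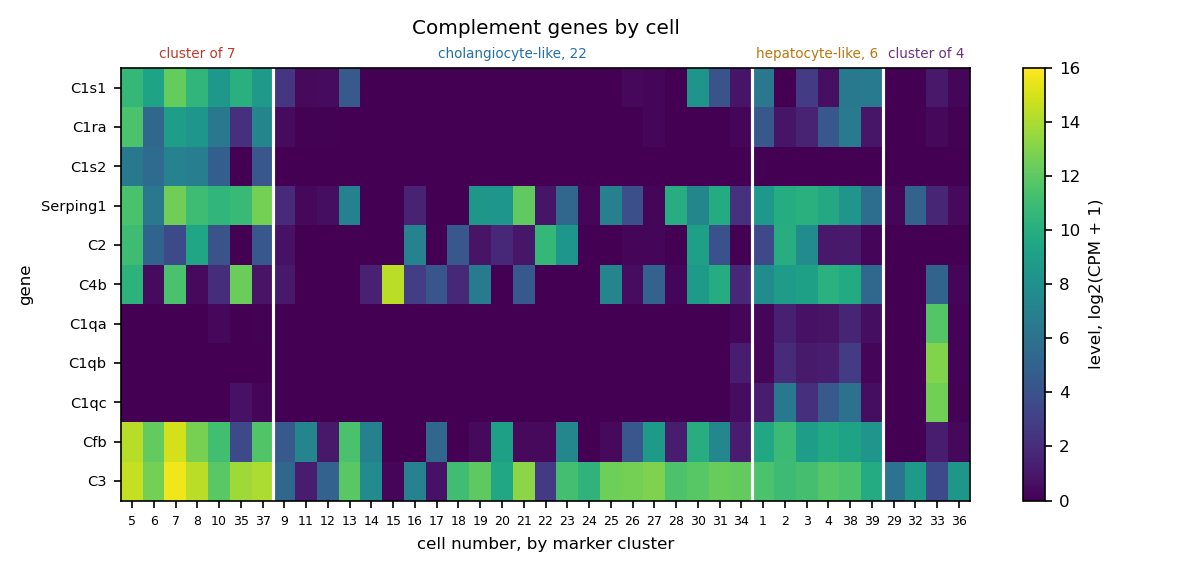
Levels of 11 complement genes in each cell, one row per gene and one column per cell, ordered by marker cluster with the cluster of 7 at the left, where colour gives log2(CPM + 1). C1s1 and C1ra are bright mainly in the cluster of 7, C1qa, C1qb and C1qc are bright in cell 33, and C3 and Serping1 are bright in many cells of the first 3 clusters.

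Of 11 measured complement regulators and receptors considered, 3 were high in at least 4 of the 7 cells. Cd55, which speeds the decay of C3 convertases, was high in 5 of the 7 and in no other cell. Clu and Calr, the chaperones clusterin and calreticulin, were high in 4 and 7 of the 7. Clu was also high in all 22 cholangiocyte-like and all 6 hepatocyte-like cells, and Calr in 9 of 22 cholangiocyte-like cells, all 6 hepatocyte-like cells and all of the cluster of 4.

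Of 5 measured WAP domain genes only Slpi, which was chosen with its levels known, was high in at least 4 of the 7. Wfdc2 was high in cell 35 at 1886 CPM, the cell of that cluster with the lowest Slpi, and in 2 cholangiocyte-like cells. Wfdc21 was high in none of the 7, all 6 hepatocyte-like cells and 2 of the cluster of 4, and Wfdc17 was high in cell 33 alone, at 7753 CPM. Wfdc12 was high in no cell, with at most 36.1 CPM. Of 17 other secreted protease inhibitors, Serping1, Timp2, Serpinh1 and Cst3 were high in at least 4 of the 7. Serpinh1, a collagen chaperone, was high in 6 of the 7 and in 1 other cell, and Timp2, an inhibitor of matrix metalloproteases, was high in 6 of the 7 and in 6 other cells.

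Of the proteases that Slpi blocks, Elane and Ctsg were measured. Elane, neutrophil elastase, was high in 3 cells of the cluster of 4, with up to 43187 CPM, and Ctsg, cathepsin G, in 3 cells of that cluster with up to 2014 CPM. In the cluster of 7 Elane was at 14.0 CPM in cell 35, 6.16 in cell 37 and 0 in the others, and Ctsg was at most 0.149 CPM. No cell was high for Slpi and for either protease, but each protease was high in 3 cells only. Both were also on the granulocyte list that helped form the clusters. How many of all genes share no high cell with Slpi was not counted, so nothing is read from this. Grn, progranulin, which Slpi is known to shield from elastase, was high in 4 of the 7, in 7 of 22 cholangiocyte-like cells and in all of the cluster of 4.

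Of 25 measured inflammatory response genes, 4 were high in at least 4 of the 7, namely Saa3, Il6st, Nfkbia and Stat3. Saa3 was at 6170 CPM in cell 5, 2854 in cell 6, 3817 in cell 7, 4335 in cell 8, 1318 in cell 10, 0 in cell 35 and 2941 in cell 37, and it was high in no other cell. These 6 cells are the same that were high for both Slpi and C1s1, and Fbln1 and Aebp1 were high in exactly these cells as well. Saa3 was already among the 10 genes most like C1s1. The share of all genes with this pattern was not counted, so nothing is read from the match. Il6st, the shared receptor chain of interleukin-6 signalling, was high in 6 of the 7 and in 6 cholangiocyte-like cells. Lcn2, an acute-phase lipocalin, was high in 3 of the 7, in 12 cholangiocyte-like cells, in 4 hepatocyte-like cells and in 1 cell of the cluster of 4, and its highest value was 3439 CPM in cell 25, where Slpi was at 593.8 CPM.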

How the data were processed

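Single cells were sequenced one library each, and the submitters' processing notes name the build mm9 and the tools Bowtie (0.12.9), eXpress (1.5.1) and edgeR, without order or settings. The deposited values were log2 values of 13568 RefSeq transcripts. The shared lowest log2 value of -2.58 (0.167 linear) was taken as no reads, values were turned to linear ones with 0.167 subtracted, and rows were summed per symbol. Scale and unit (CPM) were inferred from the values. Linear sums per cell ran from 351255 to 3128332 and were used as deposited. The worth of 1 read came from repeats among low values (30.9% to 51.9% of them within 2% of a whole multiple in 37 cells). In cells 38 and 39 this share was 13.0% and 18.4%, and their depth is unknown. C1s1 was whole in 13 of 21 cells above 0. Without molecular identifiers, reads may be copies of one molecule, so intervals cover counting error or the choice of cells only.

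The cells were clustered by Ward linkage on log2(CPM + 1) of 98 of 131 listed markers with k from 2 to 6 (silhouette 0.363, 4 clusters). No doublet caller was run and no cell was removed. Likeness was Pearson's r over genes at 1 CPM in at least 4 cells. Named were the members, the 10 genes most like each, the measured classical complement, WAP domain and Slpi target genes, up to 4 genes of each other pathway list that were high in the most cells high for either member, up to 4 markers per cell type and Krt19. Nfkbia and Col5a1, named to complete a count, were picked after their values were seen. One listed gene is not reported here. Members and lists were chosen with earlier results of these data known. The fixed plan named levels in cells with and without the members, and counts by marker cluster are given in their place. Promoters came from a RefSeq table, and transcript copies were compared with BLAST+ 2.17.0. The ranking and clustering steps were tested on simulated data. Python 3.11.15, pandas 2.3.3, SciPy 1.17.1 and scikit-learn 1.9.0 were used.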

Additional observations from a re-analysis of the deposited data

How the results depend on the processing

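Of 44 values recomputed under other settings, only those of Pearson's r could change sign, and none of these did. Shares of cells were judged against their 95% interval and counts of genes against 1.5 times. Pearson's r counted as moved where it shifted by 0.005 or more. These rules left 27 in place and 17 moved. The interval covers the choice of cells and is wide, so large shifts could count as in place. Slpi went from 8 cells to 14 (35.9%) at 1 CPM, and both genes together from 6 cells to 11 (28.2%), and both counted as in place. At a threshold of 1 CPM, C1s1 was found in 16 cells, 41.0% of them, in place of 23.1% at 100 CPM. Pearson's r between Slpi and C1s1, 0.695 as reported, was 0.681 with a pseudocount of 0.1, 0.700 with 10, 0.772 without hepatocyte-like cells, 0.668 with each cell scaled to a sum of 1000000, 0.746 without cells 38 and 39, and 0.675 after rescaling without Rn45s, Lars2 and Rorb, an alternative chosen after seeing the data. The share of the cluster of 7 that was high was 85.7% for Slpi and 100% for C1s1. Average linkage, a pseudocount of 10 and 4 marker lists alone gave 2 clusters, and the 33 cells that were not hepatocyte-like then held 8 high cells, 24.2%, for either gene. At 10 CPM Slpi was found in 100% of the cluster of 7. Of the 10 genes most like Slpi, 4 were among the nearest 10 by Spearman's rho and 6 with a pseudocount of 10. Of those most like C1s1, 3 were by Spearman's rho. Each member was high in 8 or 9 cells under the other scalings and row choices, except that C1s1 was high in 11 cells with each cell scaled to a sum of 1000000 or rescaled without the 3 genes. Under the first of these scalings the cells gained were hepatocyte-like, numbers 1 and 38. The causes were not tested. No paired analysis was possible because the labels give 1 group and no test was made. With 1 library per cell and no named animal, no spread between replicates could be given.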
